A study of Mus musculus with 16 samples.

Results

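The RNA libraries of LC3-GFP positive and LC3-GFP negative T cells were compared across all genes. They are 4 of the 16 samples of the series, 2 positive and 2 negative, chosen by the population named in their labels, and the other samples are chromatin libraries. Every RNA library came from CD8+ T cells of Pmel mice, whose T cell receptor recognises a melanocyte antigen, carrying an LC3-GFP-RFP reporter. In both groups purified T cells had been stimulated through CD3 and CD28 for 3 days, with each antibody at 2 µg/ml, in 100 IU/ml IL2. Both groups had then received carbon monoxide (CO) for 24 h before they were sorted by GFP, so the negative cells are CO-treated too, and a group without CO was not analysed here. The sort reads the fluorescence of a reporter protein and is no direct measure of autophagic flux. The labels do not say whether the 2 replicates of a group came from separate mice or cultures, so the p-values speak only to how these particular samples vary, and that variation may be technical. The table lists 13275 genes, of which 12022 had enough counts to be tested.

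LC3 is a small protein that is coupled to a lipid on the growing autophagosome, the vesicle that encloses cytoplasm for delivery to the lysosome, and a GFP-tagged LC3 therefore marks these membranes. PERK is a kinase of the endoplasmic reticulum (ER) that lowers translation through eIF2α and lets the transcription factor ATF4 be made, with CHOP among its downstream factors. CO is also made in cells by heme oxygenase, an enzyme that breaks down heme. The series title links CO, PERK and autophagy, and the comparison asks how the transcripts of cells with and without LC3-GFP signal differ.

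Total estimated counts per library ran from 14567540 to 17557628, and 3 counts, taken as the floor of detection per library, equalled 0.167 to 0.210 CPM, counts scaled to a common library total after TMM adjustment. CD8 T cell markers were present in every library, with summed levels of 2526 and 2563 CPM in positive and 2803 and 2850 CPM in negative libraries, and 6 of the 9 tested were lower in positive cells. Genes of T cell receptor chains were not analysed here. The replicates lay closer to each other than to the other group: the median size of the log2 ratio between libraries was 0.0785 within the positive and 0.102 within the negative pair, and 0.161 to 0.171 between groups. The precursor of ribosomal RNA, Rn45s, took 1.43% and 1.51% of counts in positive and 3.20% and 3.58% in negative libraries, and its part in the differences below was not tested. Results without it differed little, with 2992 genes called in place of 3000.

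Many transcripts differed by a little, and falls in positive cells outnumbered rises between 1.5-fold and 4-fold. A gene is called here at an adjusted p under 0.05 in the quasi-likelihood test of edgeR, corrected by the Benjamini-Hochberg method, and "rose" and "fell" are used for genes called higher or lower in positive than in negative cells. In all, 3000 genes were called (25%), 1362 higher (11.3%) and 1638 lower (13.6%). The median log2 fold change was 0.002 over all tested genes, 0.27 over those that rose and -0.38 over those that fell. Beyond 1.5-fold there were 143 rises (1.19% of tested genes) and 471 falls (3.92%), and beyond 2-fold 74 (0.616%) and 223 (1.85%). Beyond 4-fold there were 30 of each, and the largest log2 change was 8.56 among rises, while the deepest fall measured 4.90 on that scale. Most of these large changes were at low levels. Of the rises beyond 2-fold, 19 had a mean under 1 CPM and 52 a mean of 1 to 10 CPM, and of the falls 32 and 135. The median level beyond 1.5-fold was 3.62 CPM for rises and 7.59 CPM for falls. Folds at the lowest levels rest on few counts and are imprecise. Libraries of the groups did not overlap for 7398 genes (61.5%), with the positive libraries above for 3676 (30.6%) and below for 3722 (31%). When libraries were scaled by their size alone and not by TMM, 65.1% of called genes were higher in place of 45.4%, and the median of all genes stood at 0.065.

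**Figure D1:**
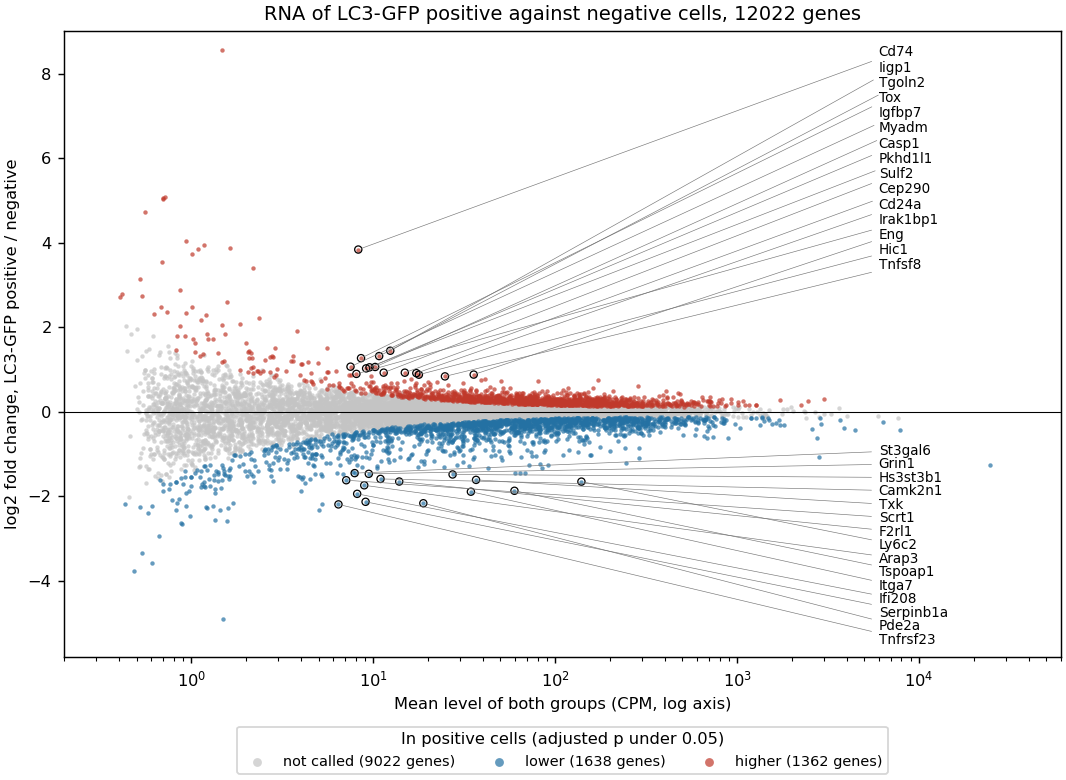
Each point is 1 of 12022 tested genes, with its mean level over both groups in CPM on a log axis and its log2 fold change between LC3-GFP positive and negative cells. Called genes are coloured, and circles mark the 15 genes with the largest change in each direction among called genes of at least 10 CPM in the higher group. Among genes over 100 CPM most points lie close to 0, and the falls reach further than the rises between 10 and 100 CPM.

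The difference in reach depended on the level of the gene. Among the 6483 genes with a mean of 10 to 100 CPM, 725 rose and 813 fell, but 3 rose and 48 fell by more than 2-fold. Among the 2341 genes of the next higher level class, 500 rose and 506 fell, and 0 and 6 passed 2-fold. Of the 72 most abundant genes 11 rose and 26 fell. Genes that rose together took 184685 and 184985 CPM in positive and 156255 and 157496 CPM in negative libraries. Genes that fell together took 220232 and 221034 CPM in positive and 293301 and 291534 CPM in negative libraries, so their share of the RNA differed by more. Among 372 long noncoding RNA genes 12 rose and 46 fell, and among 11515 protein-coding genes 1347 rose and 1564 fell. In bulk samples such as these, fewer cells of a kind and less RNA per cell cannot be told apart.

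The size of the called set depended on the libraries used, and leaving out either positive library made it smaller. A group left with 1 library takes its spread from the other pair. The median size of the log2 ratio was 0.0785 within the positive and 0.102 within the negative pair. The part of this in the counts was not tested. With positive replicate 1 left out, 683 genes rose and 1039 fell, and with positive replicate 2 left out 738 and 1068. DESeq2 called 705 higher and 983 lower, of which 704 and 981 were also called in the same direction by edgeR. For this reason the counts of the pathway lists below are also given with positive replicate 1 and positive replicate 2 left out, in that order. The shares over all tested genes to set beside the main counts are 11.3% higher and 13.6% lower. No gene called both in the main fit and in another setting changed direction, and genes not called were not compared in this way.

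**Figure D2:**
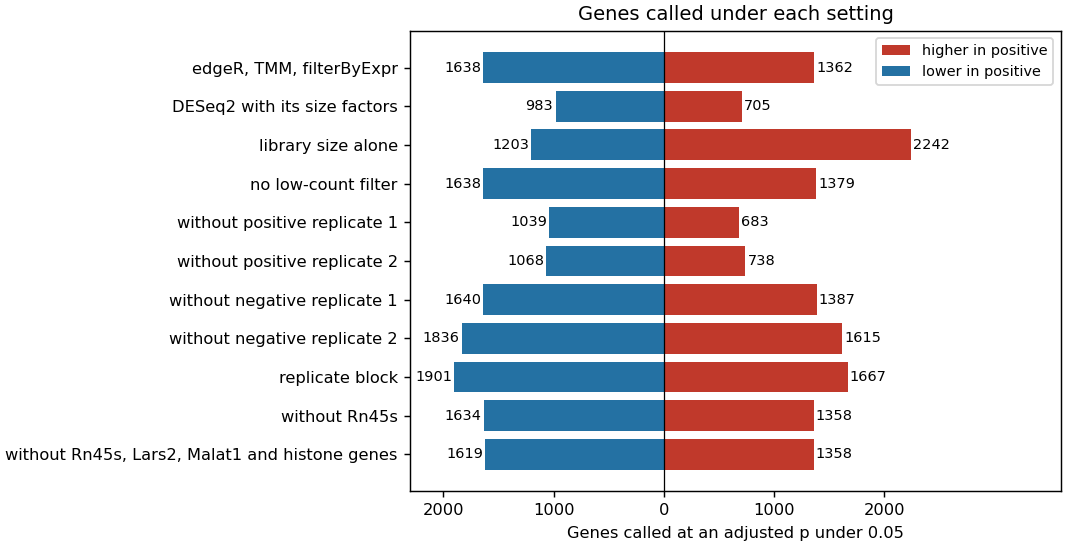
Bars give the number of genes called lower (left) and higher (right) in positive cells under each setting, starting with edgeR on TMM-scaled libraries at 1638 and 1362. Leaving out a positive library or using DESeq2 shortens both bars, and library size alone lengthens the right bar to 2242.

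Transcripts of the ATG8 family, which holds LC3 and its GABARAP relatives, were close between the sorted populations. Map1lc3b, the gene of the LC3 form used most often as a marker, stood at 57.8 and 54.5 CPM in positive and 58.3 and 61.5 CPM in negative libraries and was not called (log2 fold change -0.09 ± 0.0682 SE, adjusted p = 0.367). Map1lc3a, its paralog, stood at 1.62 and 2.26 against 3.43 and 2.17 CPM, with overlapping groups. Gabarap stood at 80.7 and 85.5 CPM in positive and 97.3 and 103 CPM in negative libraries and fell (-0.27 ± 0.0589 SE, adjusted p = 0.00253), with both positive libraries below both negative ones. Without positive replicate 1 its adjusted p was 0.0646. Gabarapl1 had a log2 fold change of -0.15 and Gabarapl2 of 0.15, with adjusted p values of 0.123 and 0.293, and Gabarapl2 was called only without negative replicate 2 (0.0293). The transcripts of the family thus did not separate the populations by more than 1.5-fold in any called gene. Sqstm1, which encodes the receptor p62 that carries ubiquitinated cargo to LC3, stood at 121 and 116 CPM in positive and 186 and 178 CPM in negative libraries and fell (-0.62 ± 0.0513 SE).

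Ddit3 was lower and Hspa5 higher in positive cells. Ddit3, which encodes CHOP, stood at 9.86 and 11.5 CPM in positive and 22.3 and 21.0 CPM in negative libraries (-1.02 ± 0.123 SE, adjusted p = 8.79e-06). Hspa5, which encodes the chaperone BiP, stood at 715 and 721 CPM in positive and 582 and 554 CPM in negative libraries (0.34 ± 0.0442 SE, adjusted p = 2.29e-05). Neither gene had overlapping groups. Eif2ak3, which encodes PERK itself, stood at 115 and 106 against 127 and 131 CPM, and its fall (-0.23) was not called without positive replicate 2 (adjusted p = 0.164). Atf4 stood at 383 and 391.6 against 438 and 429 CPM (-0.16), and it was not called without positive replicate 1 (adjusted p = 0.206), without positive replicate 2 (0.0963) or with library size alone (0.0782). Hmox1, the inducible heme oxygenase gene, stood at 19.8 and 18.0 CPM in positive and 32.9 and 27.0 CPM in negative libraries and fell (-0.66 ± 0.109 SE, adjusted p = 0.000202).

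The promoters of Hspa5 and Ddit3 are shown because these 2 genes of ER stress moved in opposite directions. Each is the 250 bases before the start of the gene in RefSeq on GRCm38.p6 (the assembly called mm10), written 5′ to 3′ along the gene: Hspa5 at chr2:34771840-34772089 and Ddit3 at chr10:127290543-127290792, both on the plus strand. Capitals mark the ER stress element (CCAAT, then 9 bases of any kind, then CCACG) and the AP-1 site (TGANTCA), which were searched on both strands.
Hspa5: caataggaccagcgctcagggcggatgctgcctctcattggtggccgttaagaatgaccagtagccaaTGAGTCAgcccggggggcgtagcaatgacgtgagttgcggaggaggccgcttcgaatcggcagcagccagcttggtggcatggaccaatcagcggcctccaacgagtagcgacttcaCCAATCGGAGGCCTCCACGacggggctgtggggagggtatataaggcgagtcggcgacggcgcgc
Ddit3: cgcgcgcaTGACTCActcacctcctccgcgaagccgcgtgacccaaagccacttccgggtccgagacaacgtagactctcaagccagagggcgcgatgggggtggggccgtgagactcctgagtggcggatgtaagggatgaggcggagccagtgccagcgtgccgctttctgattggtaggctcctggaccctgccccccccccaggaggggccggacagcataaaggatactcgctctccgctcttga
In Hspa5 the ER stress element lies at -65 to -47 and the AP-1 site at -182 to -176, counted from the start, and the 2 do not overlap. In Ddit3 an AP-1 site lies at -242 to -236, and the exact letters of the ER stress element were not matched in this window. Only exact matches were searched for. The stretch cgtgccgctttctgattgg of Ddit3 reads on the other strand as CCAAT, 9 bases and GCACG, which is a near match. The search therefore does not show that Ddit3 lacks such an element. Over all 32851 promoter windows of this length, 0.113% hold the ER stress element and 6.75% the AP-1 site. A match describes the letters and not binding.

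Many proteasome genes were higher in positive cells, and genes of protein folding less uniformly so. The proteasome degrades ubiquitinated proteins, and 18 of its 45 tested genes rose and 0 fell, with 8 and 0 in both cases when a positive library was left out. The median log2 fold change of the list was 0.15, against 0.002 over all genes. Psma7, a subunit of the core ring, stood at 157 and 151 CPM in positive and 127 and 124 CPM in negative libraries (0.29 ± 0.0508 SE). Psmc5, an ATPase of the cap that unfolds substrates, stood at 69.8 and 75.7 against 55.1 and 57.8 CPM (0.37 ± 0.0672 SE). In both genes the positive libraries lay above the negative ones, as did those of 33 of the 45 genes, against 30.6% of all tested genes. Psma2 and Psmb4, further core subunits, rose by 0.26 and 0.25. DESeq2 called 9 of the genes and library size alone 28, all of them higher.

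Cytosolic heat shock genes rose more often than they fell. Of 27 tested, 9 rose and 2 fell (7 and 0, and 3 and 1, with each positive library left out), with a median of 0.06. With negative replicate 2 left out 7 rose and 4 fell. The HSP90 co-chaperone genes Chordc1 (0.34), Cacybp (0.29) and Ahsa1 (0.28) rose. Hsph1, which encodes a nucleotide exchange factor for HSP70, rose by 0.26 (adjusted p = 0.0754 without positive replicate 2). Hsp90ab1, the constitutive cytosolic HSP90 gene and one of the most abundant members, stood at 3444 and 3460 CPM in positive and 4146 and 3718.5 CPM in negative libraries and was among those that fell (-0.19, adjusted p = 0.0133). It was not called without positive replicate 1 (adjusted p = 0.192), without positive replicate 2 (0.166) or with library size alone (0.0665). The chaperonin TRiC and its partner prefoldin fold actin and tubulin. Of their 15 genes 3 rose and 0 fell (2 and 0, and 0 and 0), with a median of 0.01, and 3 rose and 2 fell without negative replicate 2. These were Cct6a (0.22), Cct3 (0.16) and Pfdn6 (0.29). None of the 3 was called with positive replicate 2 left out (adjusted p = 0.0514, 0.107 and 0.05002), and Cct3 was not called without positive replicate 1 either (0.153) nor Pfdn6 without negative replicate 1 (0.278) or by DESeq2 (0.0817).

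In mitochondria, import and quality control genes moved both ways. Of 34 tested, 5 rose and 2 fell (3 and 2, and 1 and 2), with a median of 0.09, library size alone gave 16 and 2, and leaving out negative replicate 2 gave 8 and 3. The falls were the matrix protease gene Lonp1, at 244 and 261 CPM in positive and 346 and 322 CPM in negative libraries (-0.40 ± 0.0501 SE), and Afg3l2, a protease gene of the inner membrane, at 199 and 202 against 252 and 241 CPM (-0.30). Both proteases were thus lower in positive cells in every library. Hspd1, the mitochondrial chaperonin gene, rose by 0.20 and was not called without positive replicate 2 (adjusted p = 0.107), and Timm9, a small import chaperone gene, rose by 0.50. Translation factors split evenly, with 6 of 43 higher and 5 lower (3 and 2 in both cases), 12 higher and 3 lower with library size alone, and 10 and 5 without negative replicate 1. Among them Eif3f, a subunit gene of the initiation factor eIF3, fell (-0.34) and Eif4g2, which encodes an eIF4G relative used in cap-independent initiation, stood at 1146 and 1176 against 998 and 964 CPM and rose (0.24). The elongation factor genes Eef1a1 and Eef2 fell by 0.42 and 0.25 on the log2 scale, the latter with adjusted p values of 0.0568 and 0.0955 without positive replicates 1 and 2.

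Few genes of nutrient sensing or of the fusion of autophagosomes with lysosomes differed. Of 41 genes of the kinases AMPK and mTORC1 and their regulators, 2 rose and 5 fell (2 and 3, and 1 and 2), with a median of -0.03. With library size alone 4 rose and 3 fell, and without negative replicate 1 4 and 4, so the balance of directions depended on these choices. Eif4ebp1, which encodes the translation repressor 4E-BP1, stood at 83.4 and 83.6 CPM in positive and 118 and 117 CPM in negative libraries (-0.50 ± 0.0540 SE, adjusted p = 2.89e-06). Fnip1, whose product binds folliculin at the lysosome, stood at 109 and 102 against 74.1 and 77.2 CPM and rose (0.48 ± 0.0593 SE). These 2 genes had no overlap between groups and kept their call under every alternative. Ddit4 (-0.22) and Sesn1 (-0.28), stress-induced inhibitors of mTORC1, fell, with adjusted p values of 0.0857 and 0.0707 without positive replicate 1, and Sesn1 had one of 0.0954 without positive replicate 2 and 0.110 by DESeq2. Of 24 fusion genes 1 rose and 1 fell (0 and 1 in both cases), and without negative replicate 1 1 rose and 3 fell. Tecpr1, which encodes a protein that links autophagosomes to lysosomes, fell from 204 and 221 CPM in negative to 162 and 160 CPM in positive libraries (-0.40). Rab7, the GTPase gene of late endosomes, rose by 0.14 and was called neither by DESeq2 (adjusted p = 0.0903) nor with positive replicate 1 (0.114) or 2 (0.319) left out.

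Most genes of nucleotide synthesis were higher in positive cells. Of 21 purine synthesis genes 13 rose and 2 fell (7 and 2 in both cases), with a median of 0.17. Ppat, the enzyme of the first committed step, stood at 149 and 157 CPM in positive and 115 and 118 CPM in negative libraries (0.39 ± 0.0523 SE). Nme1, a nucleoside diphosphate kinase gene, and Pfas, which acts midway in the pathway, rose by 0.34 and 0.30. Adssl1, the muscle form of adenylosuccinate synthase, went the other way at 8.36 and 7.35 against 15.5 and 13.8 CPM (-0.90). Of 17 pyrimidine genes 10 rose and 0 fell (6 and 0, and 5 and 0), with a median of 0.18. They included both subunits of ribonucleotide reductase, Rrm1 and Rrm2 (0.25 each), the thymidylate kinase gene Dtymk (0.34) and Umps, which makes uridine monophosphate (0.29). Rrm2 stood at 604 and 615 CPM in positive and 504 and 522 CPM in negative libraries. With DESeq2, 8 purine and 7 pyrimidine genes rose.

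One-carbon and polyamine genes moved in both directions within a pathway. Of 24 one-carbon genes 7 rose and 3 fell (3 and 3, and 6 and 2), with a median of 0.06, and 8 and 6 without negative replicate 2. Mat2a, which makes the methyl donor S-adenosylmethionine, stood at 343 and 342 CPM in positive and 209 and 242 CPM in negative libraries (0.60 ± 0.0557 SE, adjusted p = 3.74e-07). The cytosolic folate enzyme gene Mthfd1 rose as well (0.30). Mthfd2, the mitochondrial counterpart of Mthfd1, stood at 159 and 165 against 210 and 195 CPM and fell (-0.32 ± 0.0511 SE). Of 14 polyamine genes 5 rose and 3 fell (4 and 2 in both cases), with a median of 0.02. Odc1, the rate-limiting ornithine decarboxylase, and Srm, spermidine synthase, rose by 0.24 and 0.28. Smox, which oxidises spermine (-0.46), and Slc3a2, the shared heavy chain of several amino acid transporters (-0.44), fell, Slc3a2 from 309 and 285 to 221 and 217 CPM.

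Genes of DNA repair and of mRNA turnover contained more rises than falls. Of 56 genes of DNA damage signalling and repair, 15 rose and 1 fell (7 and 2, and 9 and 1), with a median of 0.14. Apex1, the endonuclease gene of base excision repair, stood at 86.2 and 88.8 CPM in positive and 69.6 and 68.5 CPM in negative libraries (0.34 ± 0.0594 SE). Prkdc, the kinase gene of end joining (0.31), and the recombination gene Rad54l (0.30) rose. For 33 of the 56 genes both positive libraries lay above both negative ones, against 30.6% of all tested genes. Among 46 kinetochore, spindle and cytokinesis genes 6 rose and 1 fell (4 and 0 in both cases), with a median of 0.06, 17 and 0 with library size alone, and 8 and 3 without negative replicate 2. Named from these are the kinetochore genes Knl1 (0.28), Cenpk (0.54) and Cenpi (0.38) and the checkpoint gene Bub3 (0.19), the last not called without positive replicate 1 (adjusted p = 0.124). Among 55 genes of mRNA decay and the m6A mark, 14 rose and 4 fell (5 and 3 in both cases), with a median of 0.03, and 16 and 7 without negative replicate 2. Dgcr8, which acts in microRNA processing (0.32), and the m6A reader gene Ythdf1 (0.29) rose, while Pnrc1, a nuclear receptor coactivator gene (-0.42), and Zfp36l2, whose product destabilises AU-rich mRNAs (-0.29), fell.

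**Figure D3:**
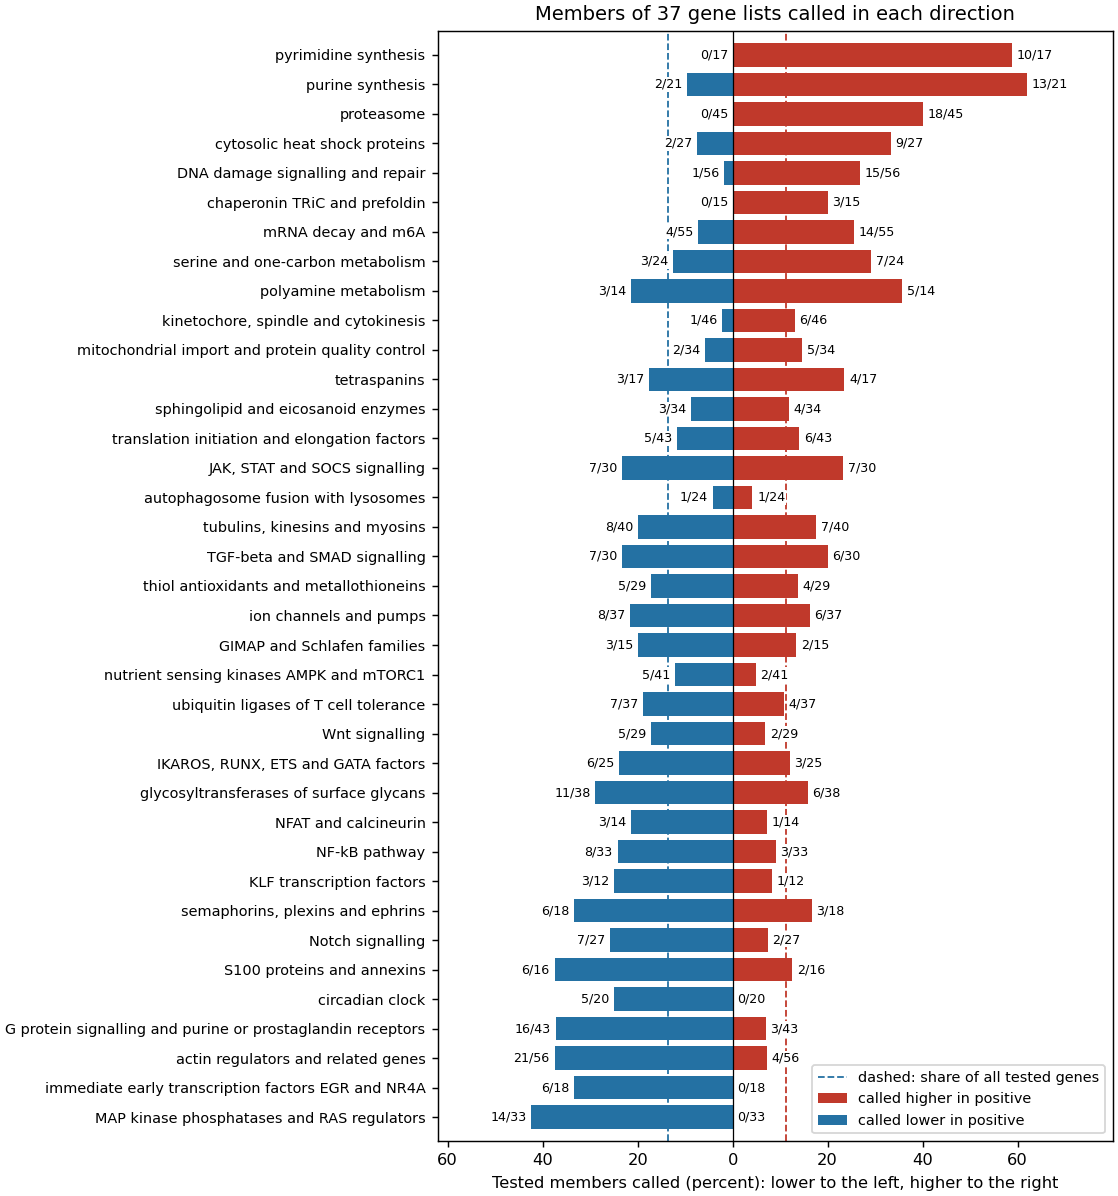
Bars show, for 37 gene lists, the percentage of tested members that fell (left, blue) and rose (right, red), with the number of called and tested genes beside each bar, and dashed lines give the shares over all tested genes, 13.6% and 11.3%. Pyrimidine and purine synthesis and the proteasome stand at the top with 10, 13 and 18 rises, and MAP kinase and RAS regulators at the bottom with 14 falls and 0 rises.

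Called regulators of RAS and MAP kinase signalling were lower in positive cells, and 19 of 33 were not called. This pathway carries the T cell receptor signal to ERK, and its phosphatases, Sprouty-type inhibitors and RAS exchange factors are partly induced by it. Of 33 genes 14 fell and 0 rose (0 and 12, and 0 and 8 higher and lower), with a median of -0.12, and library size alone gave 3 higher and 13 lower. Without negative replicate 1, 5 rose and 14 fell. Dusp6, the phosphatase of ERK, stood at 68.0 and 62.2 CPM in positive and 106 and 106 CPM in negative libraries (-0.70 ± 0.0609 SE, adjusted p = 1.88e-07). Rasgrp4, a RAS activator gene, stood at 17.9 and 15.3 against 33.7 and 29.8 CPM (-0.93 ± 0.107 SE). Both positive libraries lay below both negative ones for these genes, as for the GTPase activator gene Rasa3 (-0.37) and the RAF inhibitor gene Spred1 (-0.54). The falls thus included activators of RAS as well as inhibitors. Immediate early genes, which T cell receptor signalling induces within a short time, showed 0 rises and 6 falls among 18 (0 and 5, and 0 and 4), with a median of -0.05. Ier3 (-0.49), Ier5 (-0.37) and the antiproliferative genes Btg1 (-0.27) and Btg2 (-0.27) were among the falls, and Btg2 was not called by DESeq2 (adjusted p = 0.0535), with library size alone (0.0548) or without negative replicate 2 (0.167).

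Called NF-kB genes were mostly lower. Of 33 genes of this pathway 3 rose and 8 fell (0 and 7, and 0 and 8), with a median of -0.04, and 1 and 10 without negative replicate 2. Traf1, an adaptor gene of TNF receptors, stood at 68.8 and 66.3 CPM in positive and 97.1 and 94.1 CPM in negative libraries (-0.50 ± 0.0591 SE). Malt1, the paracaspase gene that links the antigen receptor to NF-kB, stood at 247 and 250 against 309 and 331 CPM (-0.36). The feedback inhibitor gene Tnfaip3 (-0.46) and Bcl3, an atypical IkB (-0.48), also fell. Activating and inhibitory members were therefore both lower.

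Cytokine signalling through JAK and STAT moved both ways, with 7 of 30 genes higher and 7 lower (4 and 7, and 6 and 6) and a median of -0.06. Stat3, a factor of the interleukin 6 family, stood at 282 and 276 CPM in positive and 337 and 363 CPM in negative libraries (-0.33 ± 0.0474 SE), and Stat4, the factor of interleukin 12, at 97.6 and 96.9 against 126 and 126 CPM (-0.38 ± 0.0522 SE). Neither gene had overlapping groups, and both were lower in positive cells. Socs2, a feedback inhibitor gene, rose by 0.42.

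Called genes of TGF-beta signalling moved both ways, with the receptor chain gene Tgfbr2 lower and the accessory receptor gene Eng higher. Of 30 genes 6 rose and 7 fell (5 and 7, and 6 and 6), with a median of -0.06, and library size alone gave 7 and 6. Tgfbr2, the chain that binds TGF-beta first, stood at 143 and 133 CPM in positive and 270 and 256 CPM in negative libraries, a fall of 1.90-fold (-0.93 ± 0.0510 SE, adjusted p = 4.20e-10). Lrrc32, which encodes GARP, the surface anchor of latent TGF-beta, stood at 245 and 246 against 340 and 359 CPM (-0.51), and Furin, a protease gene for the TGF-beta precursor, at 73.0 and 79.9 against 117 and 110 CPM (-0.58). These genes of supply and reception were all lower in both positive libraries. Eng, which encodes the co-receptor endoglin, went the other way at 49.3 and 42.9 CPM in positive and 24.7 and 25.7 CPM in negative libraries (0.88 ± 0.0885 SE, adjusted p = 1.12e-06).

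Notch and Wnt genes were mostly not called, as was so for all tested genes, of which 25% were called. Of 27 Notch genes 2 rose and 7 fell (2 and 4, and 2 and 2), with a median of -0.16, and with library size alone 4 rose and 3 fell. The receptor gene Notch2 and Rbpj, which encodes the DNA-binding factor of the pathway, rose by 0.35 and 0.27. Maml1, the coactivator gene (-0.48), and Numbl, an inhibitor gene (-0.99, at 8.36 and 7.79 against 17.1 and 14.9 CPM), fell. Receptor and DNA-binding factor thus rose while the coactivator fell. Of 29 Wnt genes 2 rose and 5 fell (0 and 4, and 1 and 3), with a median of -0.09. The corepressor gene Tle3 (-0.36), the receptor gene Fzd7 (-0.43) and the adaptor gene Dvl2 (-0.31) fell, and the ligand gene Wnt10b rose (0.39) but was not called by DESeq2 (adjusted p = 0.0552) or without positive replicate 1 (0.0837).

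**Figure D4:**
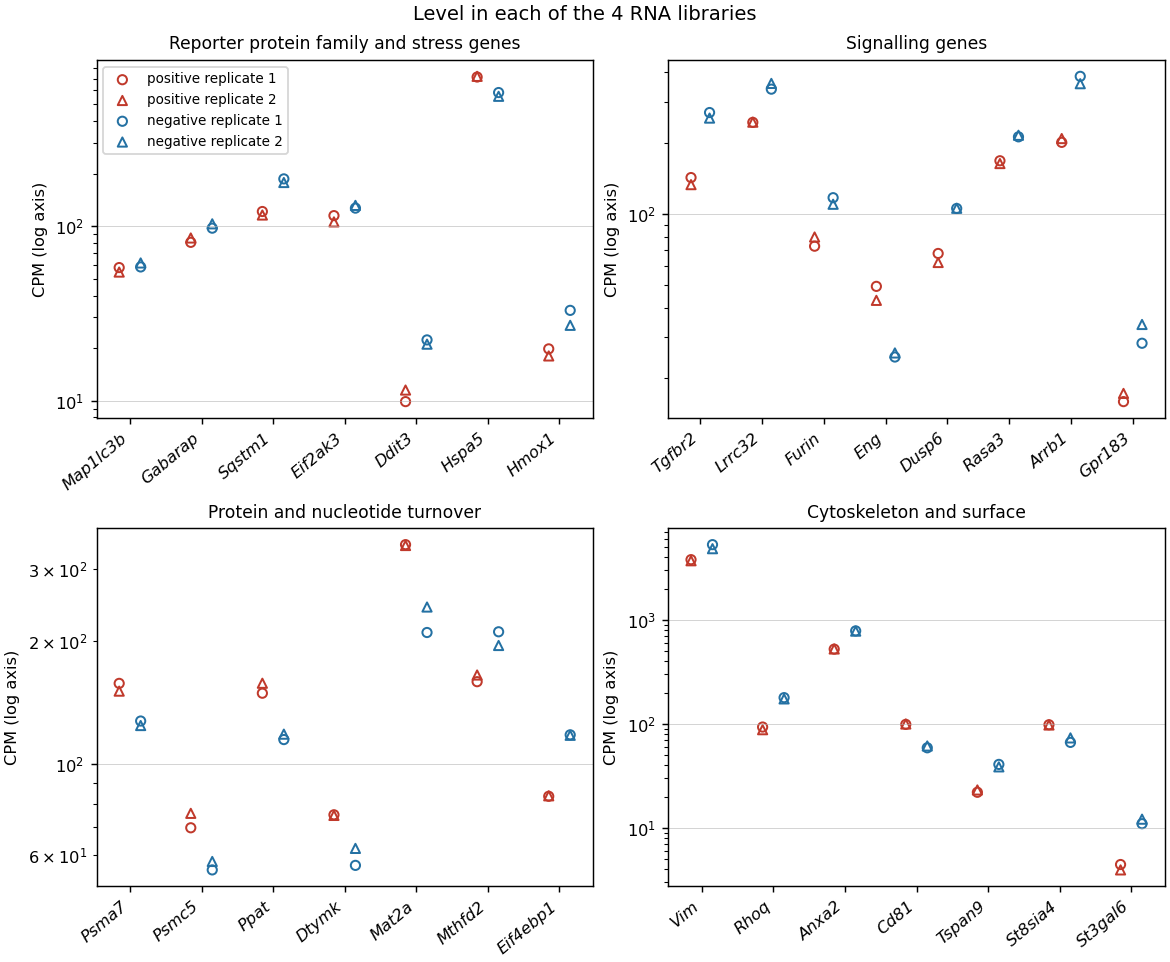
Points give the CPM of 29 named genes in each of the 4 RNA libraries on log axes, with circles for replicate 1, triangles for replicate 2, red for positive and blue for negative cells. The 2 symbols of a colour lie close together, and red lies above blue for Hspa5, Eng, Mat2a, Cd81 and St8sia4 and below it for Ddit3, Tgfbr2, Arrb1, Rhoq and St3gal6.

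Most lineage transcription factors were not called, but neither were most tested genes, of which 25% were called. Of 25 IKAROS, RUNX, ETS and GATA genes 3 rose and 6 fell (1 and 5, and 2 and 6), with a median of 0.02, and 6 rose and 5 fell with library size alone. The rises were Cbfb, the partner of RUNX factors (0.16), the IKAROS family gene Ikzf5 (0.27) and the ETS factor gene Erg (2.47). Erg had 31 and 27 counts in positive and 4 and 5 in negative libraries. It had enough counts to be tested only through the positive libraries. Runx3, a factor of CD8 lineage identity, stood at 287 and 277 CPM in positive and 353 and 340 CPM in negative libraries (-0.30 ± 0.0453 SE), and its paralog Runx2 at 78.2 and 74.0 against 99.7 and 98.7 CPM (-0.38). Ikzf3, which encodes Aiolos (-0.32), and the ETS factor gene Etv5 (-0.59) fell as well. Of 12 KLF genes 1 rose and 3 fell (0 and 2, and 1 and 1), with a median of 0.03. Klf13 (-0.27) kept its call, while Klf2, a factor of T cell quiescence (-0.19), Klf6 (-0.15) and Klf16 (0.20) lost theirs under DESeq2 (adjusted p = 0.133, 0.124 and 0.212) and with 1 or more libraries left out, namely positive replicate 1 for Klf6 (0.442) and Klf16 (0.448), positive replicate 2 for Klf2 (0.388) and Klf6 (0.0732), negative replicate 1 for Klf2 (0.0611) and Klf16 (0.0616) and negative replicate 2 for Klf16 (0.0577). With library size alone Klf2 and Klf6 were not called (0.132 and 0.205). Of 14 NFAT and calcineurin genes 1 rose and 3 fell (0 and 1, and 1 and 0), with a median of 0.04, and library size alone gave 3 rises and 0 falls. Nfat5, the factor of the response to high osmolarity, rose by 0.22 (adjusted p = 0.0948 without positive replicate 1). The calcineurin subunit genes Ppp3ca and Ppp3cc (-0.17 each) and the kinase gene Dyrk2 (-0.34) fell, and none of the 3 was called by DESeq2 (adjusted p = 0.205, 0.110 and 0.137) or without positive replicate 2 (0.206, 0.162 and 0.237). Without positive replicate 1 Ppp3ca and Ppp3cc were not called either (0.178 and 0.168), and Ppp3ca was also not called without negative replicate 1 (0.374). With library size alone the adjusted p values of Ppp3ca, Ppp3cc and Dyrk2 were 0.199, 0.127 and 0.0545.

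Called G protein signalling genes were mostly lower in positive cells. These receptors and their regulators sense chemokines, lipids and nucleotides, and 16 of 43 fell and 3 rose (1 and 14, and 2 and 12 higher and lower), with a median of -0.27. For 30 of the 43 both positive libraries lay below both negative ones, against 31% of all tested genes. Arrb1, which encodes the receptor-desensitising protein β-arrestin 1, stood at 202 and 209 CPM in positive and 385 and 358 CPM in negative libraries, a fall of 1.81-fold (-0.85 ± 0.0486 SE, adjusted p = 6.50e-10). Gpr183, a receptor gene for oxysterols, stood at 15.9 and 17.3 against 28.2 and 33.9 CPM (-0.90 ± 0.109 SE). Rgs3, which speeds the shut-off of G proteins, fell by 0.60 on the log2 scale. A receptor, a desensitiser and a shut-off factor were thus all lower.

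P2ry14, a receptor gene for UDP-glucose, stood at 33.7 and 32.8 CPM in positive and 54.6 and 55.5 CPM in negative libraries and fell (-0.73 ± 0.0738 SE, adjusted p = 1.20e-06). Its promoter is shown because an open chromatin peak over it was found in both positive and neither negative ATAC library, while the RNA was lower in positive cells. The merged peak spans chr3:59153212-59153933, and the 250 bases before the start lie inside it at chr3:59153493-59153742 on the minus strand (RefSeq, GRCm38.p6). Capitals mark an AP-1 site (TGANTCA) at -202 to -196.
P2ry14: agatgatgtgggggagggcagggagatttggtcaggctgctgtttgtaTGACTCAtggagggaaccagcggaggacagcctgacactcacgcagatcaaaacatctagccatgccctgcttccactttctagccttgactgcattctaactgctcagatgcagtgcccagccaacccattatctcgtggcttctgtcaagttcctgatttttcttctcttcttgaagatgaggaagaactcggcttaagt
A second region found in both positive and neither negative library lies within the gene at chr3:59125414-59125895.

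Ion channels and pumps moved both ways, with 6 of 37 higher and 8 lower (2 and 6, and 4 and 5), a median of -0.04, and 7 and 5 with library size alone. Atp2a2, a calcium pump gene of the ER, stood at 423 and 413 CPM in positive and 323 and 324 CPM in negative libraries (0.37 ± 0.0435 SE). Kcna3, the potassium channel gene Kv1.3 of T cells, stood at 71.3 and 69.4 against 52.7 and 51.3 CPM (0.44 ± 0.0651 SE). Itpr3, which releases calcium from the ER, stood at 126 and 116 against 157 and 154 CPM (-0.37 ± 0.0534 SE). Among the genes named here, a pump that fills the ER store was thus higher and a channel that empties it lower, in every library. Other pumps and channels of the ER in the list are given only within the counts. Trpv2, a cation channel gene, fell (-0.31).

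Called genes of the actin cytoskeleton were mostly lower in positive cells. Of 56 actin regulators and related genes 21 fell and 4 rose (3 and 16, and 2 and 17 higher and lower), with a median of -0.07, and library size alone gave 10 and 19 with a median of -0.01. The other 31 were not called. Rhoq, a small GTPase gene of the Cdc42 group, stood at 93.5 and 88.2 CPM in positive and 179 and 174 CPM in negative libraries, a fall of 1.95-fold (-0.96 ± 0.0527 SE, adjusted p = 4.20e-10). Arap3, a GTPase activator gene, stood at 4.46 and 3.70 against 12.8 and 14.7 CPM (-1.74). Vim, the intermediate filament gene vimentin, stood at 3809 and 3716 against 5310 and 4855 CPM (-0.43). These falls ranged from a low-level regulator to 1 of the most abundant transcripts, and Rhof, another small GTPase gene, fell by 0.49 on the log2 scale. Tubulins, kinesins and myosins split, with 7 of 40 higher and 8 lower (1 and 6, and 0 and 6), a median of 0.06, 12 and 6 with library size alone, and 11 and 9 without negative replicate 1. The kinesin gene Kif21b (-0.36), the myosin genes Myo10 (-0.50) and Myo6 (-0.86) and the tubulin gene Tubb6 (-0.26) fell.

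Surface and membrane families were divided. Of 17 tetraspanin genes 4 rose and 3 fell (3 and 3, and 2 and 3), with a median of 0.09. Cd81, a tetraspanin that helps organise receptors on lymphocytes, stood at 99.2 and 100.1 CPM in positive and 59.1 and 61.5 CPM in negative libraries (0.72 ± 0.0596 SE, adjusted p = 9.18e-08). Tspan9 stood at 22.1 and 23.2 against 40.9 and 38.7 CPM (-0.82 ± 0.0864 SE). Tspan32 rose (0.44) and Cd53 fell (-0.31), so members of 1 family differed in opposite directions. Of 38 glycosyltransferase genes 6 rose and 11 fell (3 and 10, and 4 and 9), with a median of -0.02. Among those that add sialic acid, St3gal6 stood at 4.46 and 3.96 CPM in positive and 11.002 and 12.2 CPM in negative libraries (-1.46 ± 0.174 SE) and St6gal1 at 176 and 181 against 232 and 239 CPM (-0.40). St8sia4, which builds polysialic acid, stood at 98.4 and 97.9 against 66.6 and 73.6 CPM (0.49 ± 0.0619 SE). The α2-3 and α2-6 types named here were thus lower and the polysialic acid type higher. Fut8, which adds the core fucose of N-glycans, fell (-0.46). Of 16 S100 and annexin genes 2 rose and 6 fell (0 and 2, and 0 and 4), with a median of -0.19. Anxa2, which binds phospholipid and actin, stood at 525 and 527 against 787 and 782 CPM (-0.58 ± 0.0426 SE). Anxa4 (-0.37) fell as well, as did S100a11 (-0.34; adjusted p = 0.0681 without positive replicate 1) and Anxa5 (-0.22; 0.159 and 0.0683 without positive replicates 1 and 2, 0.113 by DESeq2 and 0.0697 with library size alone).

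The largest rises among genes of at least 10 CPM began with a gene of antigen presentation. Cd74, which encodes the chain that guides MHC class II molecules to endosomes (chromosome 18, 60803849 to 60812652), stood at 16.3 and 14.57 CPM in positive and 0.841 and 1.33 CPM in negative libraries, a 14.3-fold rise (3.84 ± 0.225 SE, adjusted p = 9.04e-10). Next came Iigp1, an interferon-induced GTPase gene, with a log2 change of 1.44, and Tgoln2, a trans-Golgi protein gene, with 1.31. Tgoln2 stood at 11.03 and 19.9 against 10.03 and 2.10 CPM, and DESeq2 gave it an adjusted p of 0.499. Tox, a transcription factor gene of T cell development and exhaustion, rose by 1.27, and Igfbp7 (a secreted growth factor binding protein), Myadm (a membrane protein), Casp1 (the inflammasome protease) and Pkhd1l1 (a large receptor-like protein) by 1.02 to 1.06. Below these, Sulf2, which trims sulfate from heparan sulfate, stood at 13.2 and 16.7 against 8.15 and 7.55 CPM (0.92). Cep290, a centrosome and cilium gene, stood at 18.5 and 20.5 against 10.2 and 10.3 CPM (0.92 ± 0.125 SE). Cd24a, a glycosylated surface protein gene, stood at 21.3 and 23.6 against 9.38 and 14.61 CPM (0.91). All of these genes were higher in both positive libraries than in either negative one. Irak1bp1, whose product binds a kinase of Toll-like receptor signalling (0.89), the co-receptor gene Eng, the transcriptional repressor gene Hic1 (0.87) and Tnfsf8, which encodes CD30 ligand (0.83), complete the 15.

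Marker genes of B cells moved with Cd74. Of 6 tested B or plasma cell markers 5 rose and 0 fell, and their summed level, over the 9 markers listed, was 16.7 and 15.1 CPM in positive and 5.18 and 6.36 CPM in negative libraries. Cd79a had 37 and 32 counts in positive and 2 and 2 in negative libraries. Ms4a1 had 25 and 12 against 0 and 1. Cd22 had 31 and 29 against 3 and 0, and Cd79b, which was not called, stood at 6.30 and 5.96 against 3.82 and 5.24 CPM. These are few reads, and apart from Cd79b they lie at or under the floor in negative cells. Cd79a, Ms4a1 and Cd22 had enough counts to be tested only through the positive libraries. The tally of rises among tested markers is therefore no separate support. Of 8 tested macrophage, monocyte or dendritic cell markers 4 rose and 2 fell, with a summed level of 83.0 and 85.3 CPM in positive and 82.5 and 85.7 CPM in negative libraries. The rises were the MHC class II genes Cd74, H2-Aa and H2-Eb1 and the macrophage gene Mpeg1, and H2-Ab1 (46.7 and 52.2 against 67.0 and 71.3 CPM) and Cd68 fell. Their part in the rise of Cd74 was not tested. Ccl22, a chemokine gene of antigen-presenting cells chosen here after its values were seen, had 55 and 45 counts in positive and 0 in both negative libraries. It too could pass the count filter only through the positive libraries, so it is no separate support.

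Most tested genes of the NK or innate lymphoid marker list were lower in positive cells. Markers of the other lineages differed in single genes or were not called. Of 6 tested NK or innate lymphoid markers 5 fell and 0 rose, with summed levels of 240.4 and 236 CPM in positive and 359.7 and 364 CPM in negative libraries. Eomes, a T-box factor gene shared by NK and CD8 T cells, stood at 34.5 and 34.3 against 98.5 and 89.3 CPM (-1.45). With such shared genes in the list, its summed level in CD8 T cells is no measure of NK cells. The helper T cell markers summed to 610.0 and 601 CPM in positive and 549 and 626 CPM in negative libraries, and of the 3 tested Cd4 rose, at 4.40 and 3.39 against 0.971 and 0.699 CPM, and Zbtb7b, the factor of the CD4 lineage, fell (-0.48). The single neutrophil marker listed was not tested. None of 1 tested erythroid, 1 platelet and 5 stromal or epithelial markers was called by edgeR, and their summed levels were at most 1.34, 0.891 and 65.5 CPM in any library.

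The largest falls among genes of at least 10 CPM were deeper than the rises, Cd74 apart. Pde2a, which breaks down cyclic nucleotides, stood at 7.19 and 6.47 CPM in positive and 27.1 and 34.6 CPM in negative libraries (-2.17 ± 0.139 SE). The decoy receptor gene Tnfrsf23 (-2.20), the protease inhibitor gene Serpinb1a (-2.13), the interferon-inducible gene Ifi208 (-1.95), the integrin gene Itga7 (-1.89), Tspoap1, a synapse scaffold relative (-1.87), Arap3 (-1.74) and Ly6c2, a memory and effector surface protein (-1.66), stand in the same range. F2rl1, which encodes protease-activated receptor 2, stood at 6.02 and 7.41 against 21.7 and 20.4 CPM (-1.65 ± 0.139 SE). Txk, a TEC-family kinase gene of T cell receptor signalling, stood at 20.1 and 15.9 against 53.1 and 57.8 CPM (-1.61 ± 0.0990 SE). Both were lower by more than 3-fold in positive cells. Camk2n1, an inhibitor gene of calcium/calmodulin kinase II (-1.59), and Scrt1, a zinc finger repressor gene known from neurons (-1.62), fell likewise. Hs3st3b1, which sulfates heparan sulfate, stood at 14.598 and 14.1 against 39.8 and 40.6 CPM (-1.49 ± 0.0932 SE). Grin1, a subunit gene of the NMDA receptor (-1.47), and St3gal6 complete the 15. Of the 30 genes named for fold size, Tgoln2 was the 1 gene to lose its call, under DESeq2.

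Counted in CPM, where longer transcripts collect more reads, the largest rise was of a cytokine receptor gene. Il2ra, the α chain of the interleukin 2 receptor, stood at 3329 and 3327 CPM in positive and 2637 and 2793 CPM in negative libraries (0.29 ± 0.0469 SE). Tfrc, the transferrin receptor gene that brings in iron, stood at 1889 and 1896 against 1486 and 1632 CPM (0.28 ± 0.0493 SE). Mbnl1, a splicing regulator gene, stood at 1014.5 and 1019 against 819 and 826 CPM (0.31). All 3 were higher in both positive libraries than in either negative one, and none by as much as 1.5-fold. The fatty acid synthase gene Fasn (0.28), the ER chaperone gene Calr (0.29), Ccng1, a cyclin gene induced by p53 (0.35), the RNA-binding protein gene Hnrnpab (0.23) and Eif4g2 follow. Ptma, which encodes the nuclear protein prothymosin α, rose by 0.15 and was not called without positive replicate 1 (adjusted p = 0.135) or 2 (0.453). Xist, the RNA of X inactivation, stood at 2694 and 2653 against 1867 and 2610 CPM. Its call (adjusted p = 0.0499) rested on negative replicate 1, and without that library its adjusted p was 0.439, without positive replicate 1 it was 0.0775, without Rn45s 0.0501 and by DESeq2 0.570.

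The largest falls in CPM were of noncoding and abundant housekeeping RNAs. Rn45s stood at 13964 and 14770 CPM in positive and 32847 and 36462 CPM in negative libraries (-1.27 ± 0.0589 SE). Lars2, which encodes mitochondrial leucyl-tRNA synthetase, stood at 1800 and 1845 against 3301 and 4393 CPM (-1.08 ± 0.0835 SE). Malat1, a nuclear noncoding RNA, stood at 2085 and 2248 against 3154 and 3486 CPM (-0.62 ± 0.0541 SE). In all 3 the libraries came in the same order, lowest in positive replicate 1 and highest in negative replicate 2. Genes for the replication histones, which are grouped here after their values were seen, showed 24 falls and 0 rises among 48 tested, with a median of -1.11. Their summed level was 70.7 and 69.3 CPM in positive and 111 and 144 CPM in negative libraries. Without Rn45s, Lars2, Malat1 and the histone genes (64 genes in all), 1358 genes rose and 1619 fell. The remaining falls were of Eef1a1, which stood at 6688 and 6718 against 9334 and 8647 CPM, Eef2, Vim, the actin gene Actg1 (-0.38), the glycolytic genes Aldoa (-0.42) and Eno1 (-0.28; adjusted p = 0.115 without positive replicate 1), and Hsp90ab1.

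Open chromatin at the promoters of these genes was mostly present in both populations. In ATAC-seq libraries made separately from cells sorted in this way, 2 positive and 2 negative, a peak touched the promoter window (250 bases before the start to 50 after it) in all 4 libraries for 93.4% of genes that rose, 84.8% of those that fell and 88.7% of those not called. For changes beyond 1.5-fold the shares were 72.0% and 68.2%. With at least 150 bases of the window covered these were 57.3% and 63.5%, in the opposite order. A promoter peak in both positive and neither negative library was found for 6 genes that rose and 16 that fell, and the opposite for 0 and 4, against 27 and 22 of 9022 genes not called (0.299% and 0.244%). These small counts moved with the processing. When at least 150 bases of the window had to be covered they were 5 and 22, and 4 and 4, and with peaks of a −log10 q of at least 5 they were 8 and 9, and 1 and 10. Without ATAC positive replicate 1 they were 6 and 17, and 5 and 17, and without positive replicate 2 10 and 26, and 2 and 8. Without ATAC negative replicate 1 they were 11 and 33, and 1 and 8, and without negative replicate 2 6 and 19, and 3 and 11. Over gene bodies with 2000 bases upstream, a region found in both positive and neither negative library lay in 16.5% of genes that rose, 17.7% of those that fell and 15.2% of those not called. Regions of the opposite kind lay in 7.42%, 11.8% and 7.32%. Beyond 1.5-fold, positive-only regions lay in 23.8% of 143 genes that rose and 15.3% of 471 that fell, and negative-only regions in 6.29% and 8.49%. Among named genes, Cep290, whose RNA was higher, had peaks in its promoter window in both positive and neither negative library, although no merged region of the gene was positive-only. P2ry14, whose RNA was lower, had 2 positive-only regions. Eng had positive-only regions at chr2:32655007-32656292 and chr2:32665191-32665878 within the gene, and Hs3st3b1 a negative-only region at chr11:63908456-63908942 within the gene. Other genes went against the direction of their RNA. Igfbp7 and Il2ra, which rose, had 1 negative-only region each and 0 positive-only ones. St6gal1 and Cblb, which fell, had 5 and 3 positive-only regions and 0 negative-only ones. They hold 24 and 28 merged regions, against a median of 2 over genes that fell. Of all 73647 merged regions 5911 were positive-only and 2449 negative-only. Peak lists give no read depth, so a missing peak may be a shallow one.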

How the data were processed

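RNA was measured in 4 libraries of sorted CD8+ T cells (2 LC3-GFP positive, 2 negative), and the labels' protocols name a mirVana kit for the total RNA. The deposited RNA values are estimated counts per gene, of which 22.5% to 23.8% are not whole. STAR, DESeq2 and Partek (RNA), cutadapt, BWA, MACS2 and Partek (ATAC) and the mm10 build are named per the submitters' processing notes; versions, the annotation and the use of strand are not given in the sources used here. Overlapping, antisense and near-identical genes (Tgoln2, Ly6c2, Ifi208, the Hist and Klra genes) are therefore uncertain. The deposited in vitro ATAC peak lists, 1 per library, give a −log10 q-value per peak. Deposited lengths equal end minus start, from which ends were inferred to lie 1 base past the last base, and 1 was subtracted.

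Counts were rounded and tested with edgeR 4.0.16 (R 4.3.3, limma 3.58.1): filterByExpr, TMM scaling, quasi-likelihood test of positive against negative, Benjamini-Hochberg adjustment over 12022 genes, threshold 0.05. CPM divide by the library size multiplied by its TMM factor. DESeq2 1.42.0, library size alone, no low-count filter, each library left out and a replicate block were alternatives, and settings without Rn45s and other abundant RNAs were added after seeing the data. The test was tested on simulated data. Totals of 14567540 to 17557628 counts per library set the precision, and the floor of 3 counts covers counting error only. ATAC peaks were merged and overlapped by at least 1 base with bedtools 2.31.1; Python 3.11.15, pandas 2.3.3, numpy 2.4.6, scipy 1.17.1 and matplotlib 3.10.9 made the rest.

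Named genes were the 15 called genes per direction with the largest fold change (at least 10 CPM in the higher group, groups not overlapping), the 10 per direction with the largest CPM difference, 11 reporter and stress genes, and up to 4 called members per list with the smallest adjusted p. Members, the 37 gene lists and the 9 marker lists were chosen with earlier results of these data known, and lists are described by counts and medians without a test of the list. The other samples of the series were not used here, apart from 4 in vitro ATAC libraries. Some genes that this rule names are not reported here.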

Additional observations from a re-analysis of the deposited data

How the results depend on the processing

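DESeq2 called 1688 genes (705 higher, 983 lower) in place of 3000 (1362 and 1638), and library size alone called 2242 higher. With each library left out in turn, 1722 to 3451 genes were called, 683 to 1615 higher and 1039 to 1836 lower; the lowest counts were those without positive replicate 1, and leaving out positive replicate 2 gave 1806 (738 and 1068). The cause of these differences was not tested. A lone remaining library is assumed to vary like those of the other group. The replicate block called 3568 genes (1667 higher, 1901 lower); the labels do not pair the numbers, and deviations of same-numbered libraries correlated at 0.0501. Of 195 named called genes 159 kept direction and call under every setting; 15 lost the call under DESeq2, 9 with library size alone, 24 and 21 without positive replicates 1 and 2, and 5 and 3 without negative replicates 1 and 2, and no named gene changed direction. With 2 libraries a group, values near the floor of 3 counts, such as those of B cell genes, have little precision. The number of calls moves with the scaling, the tool and the libraries used.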

Other observations

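Called genes of metal and redox handling moved both ways, and the 4 with the smallest adjusted p, named here, were lower in positive cells. The metallothionein gene Mt2, which binds zinc, stood at 32.3 and 31.1 CPM in positive and 56.4 and 62.2 CPM in negative libraries (log2 fold change -0.90 ± 0.0776 SE), and its neighbour Mt1 at 83.2 and 83.7 against 113 and 114 CPM (-0.45). Txnip, an inhibitor gene of thioredoxin (-0.41), and the peroxiredoxin gene Prdx5 (-0.49) fell as well. In all, 4 of 29 thiol antioxidant and metallothionein genes rose and 5 fell, with a median of -0.01 (3 and 4 with either positive library left out, 7 and 4 with library size alone). Among 20 circadian clock genes 0 rose and 5 fell, with a median of -0.03 (0 and 4 with either positive library left out, 2 and 5 with library size alone). Nfil3, a repressor gene of the clock and of cytokine genes, stood at 195 and 189.9 against 298 and 266 CPM (-0.55), and Bhlhe40 at 602 and 602.5 against 815 and 768 CPM (-0.39). Per1 fell by 0.35 on the log2 scale. Rora fell by 0.43, and its adjusted p was 0.0795 by DESeq2, 0.0784 without positive replicate 2 and 0.0720 without negative replicate 2.

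Ugcg, which makes glucosylceramide, stood at 193 and 189.9 against 288 and 285 CPM (-0.58 ± 0.0452 SE). Of 34 sphingolipid and eicosanoid genes 4 rose and 3 fell, with a median of 0.02 (1 and 3, and 3 and 2, without positive replicates 1 and 2). The sphingomyelinase genes parted, with Smpd1 at -0.42 and Smpd4 at 0.27 (adjusted p = 0.0591 without positive replicate 1), and the phosphatase gene Sgpp1 rose by 0.24 (0.0580 without positive replicate 2). Of 15 GIMAP and Schlafen genes 2 rose and 3 fell, with a median of -0.06 (2 and 1, and 2 and 2; 3 and 2 with library size alone; 4 and 2 without negative replicate 2). Slfn1 (-0.66) and Slfn2 (-0.30; 0.124 without positive replicate 1) fell and Slfn9 (0.44) and Gimap9 (0.33) rose. Of 37 ubiquitin ligase genes of T cell tolerance 4 rose and 7 fell, with a median of -0.03 (1 and 2, and 2 and 6; 9 and 4 with library size alone). Cbl, a ligase gene for activated receptors, rose (0.36), while its relative Cblb (-0.20; 0.0990 without positive replicate 1), Nedd4 (-0.37) and Trim26 (-0.34; 0.0530 without positive replicate 1) fell. Of 18 semaphorin, plexin and ephrin genes 3 rose and 6 fell, with a median of -0.06 (2 and 5, and 3 and 3). The semaphorin genes Sema4a (-0.43) and Sema4d (-0.23; 0.0603 without positive replicate 2) and the receptor gene Plxnd1 (-0.57) fell, and the receptor gene Plxnc1 rose (0.43).

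Runs of at least 3 neighbouring tested genes that each fell by more than 1.5-fold, looked for after the values were seen, numbered 8. Of these runs 4 were of histone genes. The others were Ifi209, Ifi208 and Ifi204 on chromosome 1 (173630859 to 173766919), Serpinb1a, Serpinb6b and Serpinb9 on chromosome 13 (32842092 to 33017955), Klra7, Klra13-ps, Klra3 and Klra1 on chromosome 6 (130218605 to 130386874), and Zfp652, Phospho1 and Abi3 on chromosome 11 (95749067 to 95842476). Genes in the first 3 of these are related members of gene families, and how reads shared between copies were counted is not given in the sources used here.

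Genes of the Y chromosome and Xist were both present in every library of these mouse cells. Negative replicate 1 stood apart in both, with Xist at 1867 CPM against 2610 to 2694 CPM in the other libraries, and Ddx3y at 28.3 CPM against 17.1 to 19.8 CPM. Eif2s3y stood at 25.96 and 24.2 CPM in positive and 37.2 and 28.9 CPM in negative libraries.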
